A study of Mus musculus with 12 samples.

Results

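The S100 proteins are small calcium sensors, and 7 of their genes are described here by name: S100b, S100a1, S100a6, S100a10, S100a11, S100a13 and S100a16. The 7 were listed by symbol, whatever their values. Of these, 6 had a probe on the array, 1 probe each, and all 6 passed the filter on dim probes, among 17707 genes with a probe and 10786 genes that passed. S100a11 had no probe with its symbol and was not analysed here. Neural stem cells from the subventricular zone, the stem cell niche along the lateral ventricle, of CD1 mice at postnatal day 1 were grown as floating neurospheres and turned towards astrocytes by either of 2 mixtures of cytokines. Each sample gave 1 Illumina bead array of its RNA, 12 arrays in all and 4 for each of 3 groups.

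The Neurosphere group carried a control GFP retrovirus, was kept in EGF at 20 ng/ml, and gave its RNA straight after sorting for GFP. The LIF.NOG group carried a GFAP-GFP retrovirus, in which GFP stands under the Gfap promoter, and after the same sort spent 7 days with EGF at 1 ng/ml, LIF at 20 ng/ml and, at 250 ng/ml, noggin, which blocks BMP ligands. The BMP4 group carried the GFAP-GFP retrovirus too, and spent 7 days with EGF at 1 ng/ml and BMP4 at 20 ng/ml. Between Neurosphere and the treated groups the virus, the dose of EGF and the days in culture changed along with the cytokine and cannot be told apart from it, whereas by the labels LIF.NOG and BMP4 differed in the cytokines alone. LIF acts through the gp130 receptor and STAT3, and BMP4 through SMAD proteins. Nothing in the labels ties the 4 samples of each group to different cultures or animals, so the p-values reflect the spread over the samples given and that spread may be technical.

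An S100 protein is usually a pair of identical subunits, each with EF-hand loops that bind calcium. Calcium binding opens a surface that grips partner proteins such as annexins, receptors, ion pumps and cytoskeletal proteins, and some S100 proteins are also released and act on the receptor RAGE, the product of Ager. In the brain S100b is a long-used astrocyte marker. S100a10 is the exception of the family: it has lost calcium binding and holds annexin A2 in a fixed complex. Most S100 genes stand side by side in a cluster on mouse chromosome 3, where S100a1 and S100a13 are next to each other, as are S100a11 and S100a10, while S100b lies apart on chromosome 10.

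RefSeq promoter windows (GRCm38.p6, 250 bases before the start and 50 after it) were given for 6 of the 7 members, 7 windows in all. S100a10 had no entry. The windows were searched on both strands for TGANTCA (AP-1), TTCNNNGAA (STAT) and GGCGCC (BMP-SMAD), which 7.81%, 8.3% and 11.9% of 32851 RefSeq promoters of the same length hold. A total of 3 windows are shown, since their genes carry the main patterns below. The S100a13 window (chr3:90514185-90514484, plus strand) is shown because S100a13 and S100a1 start head to head and rose together. The S100a6 window (chr3:90612644-90612943, plus strand) belongs to the member with the largest rise in BMP4, and the S100b window (chr10:76253586-76253885, plus strand) to the member seen above background in BMP4 alone. Capitals mark a motif match.
S100a13: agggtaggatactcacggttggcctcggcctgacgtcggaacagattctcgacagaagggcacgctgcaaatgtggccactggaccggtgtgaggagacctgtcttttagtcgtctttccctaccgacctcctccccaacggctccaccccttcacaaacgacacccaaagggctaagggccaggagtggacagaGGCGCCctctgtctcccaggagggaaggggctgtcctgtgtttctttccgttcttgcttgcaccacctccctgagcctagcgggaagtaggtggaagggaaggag
S100a6: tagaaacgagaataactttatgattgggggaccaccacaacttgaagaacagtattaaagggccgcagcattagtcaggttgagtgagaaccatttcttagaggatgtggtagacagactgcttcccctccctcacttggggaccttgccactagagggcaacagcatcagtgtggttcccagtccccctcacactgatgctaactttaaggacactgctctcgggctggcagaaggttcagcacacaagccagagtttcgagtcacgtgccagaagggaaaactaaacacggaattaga
S100b: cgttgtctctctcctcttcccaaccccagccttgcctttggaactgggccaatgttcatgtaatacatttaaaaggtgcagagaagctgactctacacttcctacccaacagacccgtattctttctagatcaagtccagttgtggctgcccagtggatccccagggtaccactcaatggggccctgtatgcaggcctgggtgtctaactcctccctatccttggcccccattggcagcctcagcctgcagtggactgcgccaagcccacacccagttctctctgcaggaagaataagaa
The S100a1 window (chr3:90514281-90514580, minus strand) shares 204 of its bases with that of S100a13, and the starts in these windows point away from each other. Over all annotated transcripts, the spans of the 2 genes overlap by 98 bases. The capital GGCGCC lies in both windows, with its first base 55 bases before either start (position -55), and is 1 stretch of DNA read from both sides. The windows of S100a6 and S100b held none of the 3 motifs. Of the 2 windows of S100a16, 1 held TGANTCA at position -192 (chr3:90540896-90541195, plus strand) and the other held no match. S100a11, without a probe, had TGANTCA at positions -136 and -38. A match is a run of letters and no evidence of binding.

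Levels below are log2 normalized signals, in which 1 unit is a doubling, and they are compared between groups for 1 probe and never between genes. A probe counted as detected on an array where its deposited detection p was under 0.05, and the dimmest detected probe of an array stood at log2 4.80 to 4.92. Calls rest on an adjusted p under 0.05 (limma, Benjamini-Hochberg over 10786 genes per comparison), and an SE is the moderated limma SE. Between 38.6% and 42.0% of probes were detected per array. The rows of Neurosphere 1 stood in another order in the deposited table and were realigned before use, which raised its median rank correlation with other arrays from 0.0104 to between 0.916 and 0.928 within its group. Of 9 astrocyte markers tested, 6 were called higher in LIF.NOG and 7 in BMP4 against Neurosphere, with 0 lower, where 16.5% and 26.6% of all genes were called higher. The others did not pass, Slc1a3 in either group among them (adjusted p = 0.48 and 0.996). The summed signal of the astrocyte markers was 21028 to 23153 in Neurosphere, 28921 to 44935 in LIF.NOG and 81401 to 119123 in BMP4. Of 5 stem and progenitor markers tested, 2 were called lower in BMP4 than in Neurosphere, 0 higher, and 3 did not pass. Nes (log2 -2.80, SE 0.25, adjusted p = 4.61e-07) and Egfr (log2 -2.08, SE 0.14, adjusted p = 2.63e-08) fell, and Sox2 was unchanged (log2 0.01, adjusted p = 0.973). In LIF.NOG 1 was called higher, Prom1 (log2 0.81, adjusted p = 0.0322), and 4 did not pass, Nes among them (log2 0.24, adjusted p = 0.507). Of the microglial markers, 7 had a probe and 0 were detected on any array. Of 7 meningeal and fibroblast markers, Col1a2, Col3a1 and Lum were undetected on all 12 arrays, and Col1a1, Dcn and Pdgfrb were detected on some. Igfbp4 was detected on all, and its mean fell in LIF.NOG (log2 -1.99, SE 0.63, adjusted p = 0.0257). The groups overlapped: Igfbp4 read 8.65, 11.59, 9.25 and 7.23 in LIF.NOG, and LIF.NOG 2 lay above every Neurosphere array. Among 5 smooth muscle and pericyte markers, Acta2 fell in LIF.NOG (log2 -1.72, adjusted p = 0.00389) and in BMP4 (log2 -2.86, SE 0.39, adjusted p = 2.22e-05). Cspg4, also on this list, fell in both as well (log2 -0.87 and -0.75). Rgs5 was detected in BMP4 alone and Tagln on 4 BMP4 arrays and 1 LIF.NOG array, with means of 6.29 and 5.79 in BMP4. Of 6 endothelial markers, Cdh5 and Tie1 were undetected on all 12 arrays and Kdr was detected on all. Flt1 was called higher in LIF.NOG than in Neurosphere (at least 3.08-fold, adjusted p = 0.0267), with LIF.NOG 2 the highest at 8.92. Of 10 oligodendrocyte lineage markers with a probe, 5 were detected on all 4 BMP4 arrays. Sox10, Mog and Opalin were undetected in BMP4, and Mog in Neurosphere too. Of 9 tested, 5 were called lower in BMP4 than in Neurosphere and 0 higher, where 27.7% of all genes were called lower. Olig1 was not called (log2 0.15, adjusted p = 0.244). The 5 lower were Sox10 (at least 5.01-fold, against the dimmest detected signal), Pdgfra (log2 -2.98), Cldn11 (log2 -2.25), Olig2 (log2 -1.51) and Cspg4 (log2 -0.75). The summed signal was 28098 to 30212 in BMP4 and 26583 to 31553 in Neurosphere. Most of that sum came from Olig1 (means of 14.80 and 14.65), so it says little of the other markers. In LIF.NOG 4 of the 9 were called higher than in Neurosphere and 2 lower, Olig2 (log2 -0.88) and Cspg4 (log2 -0.87). The 4 higher were Cldn11 (log2 4.28), Opalin (log2 2.42), Mbp (log2 1.99) and Mag (at least 3.09-fold). All 4 ependymal markers tested were called higher in LIF.NOG (summed signal 632 to 1843 against 290 to 319 in Neurosphere). So were 2 of 7 neuronal markers, Dcx (log2 3.17, SE 0.38, adjusted p = 5.06e-05) and Gad1 (log2 1.92, SE 0.43, adjusted p = 0.00376). In BMP4 2 of the 4 ependymal markers were called higher than in Neurosphere (summed signal 520 to 548). Of the 7 neuronal markers 2 were called higher in BMP4, Gad1 (log2 1.41, SE 0.43, adjusted p = 0.012) and Snap25 (log2 0.84, SE 0.25, adjusted p = 0.0105). Gad1 was not called between BMP4 and LIF.NOG (log2 -0.51, adjusted p = 0.377). The part of these other cell types in the results was not tested, and in such bulk RNA fewer cells of a type and less RNA per cell cannot be told apart.

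S100a1, S100a13, S100a6 and S100a16 were higher in LIF.NOG than in Neurosphere, and higher in BMP4 than in LIF.NOG. LIF.NOG and BMP4 were separate treatments, and no cells passed from one to the other. A step in this text is therefore a difference between 2 groups and not a stage in time. S100a13, which helps to carry the growth factor FGF1 out of cells by a route that bypasses the usual secretion path, showed groups set well apart. Its levels on arrays 1 to 4 were 6.44, 6.28, 6.50 and 6.60 in Neurosphere, 7.77, 8.35, 7.94 and 7.96 in LIF.NOG, and 9.85, 9.96, 9.98 and 10.19 in BMP4. Each group stood clear of the next by more than 1 unit. The mean rose 2.92-fold in LIF.NOG (log2 1.55, SE 0.14, adjusted p = 5.29e-06) and 11.6-fold in BMP4 against Neurosphere (log2 3.54, SE 0.14, adjusted p = 2.46e-10). BMP4 was 3.97-fold above LIF.NOG (log2 1.99, SE 0.14, adjusted p = 9.42e-08).

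S100a1, a protein of heart, muscle and brain that tunes calcium pumping and release in muscle, followed its neighbour upwards. Its levels were 5.59, 5.42, 5.68 and 6.00 in Neurosphere, 8.52, 8.41, 7.38 and 8.14 in LIF.NOG, and 9.48, 9.12, 9.28 and 9.49 in BMP4. The groups did not overlap, and LIF.NOG 3 was the lowest of its group. The rise was 5.44-fold in LIF.NOG (log2 2.44, SE 0.22, adjusted p = 5.26e-06) and 12.8-fold in BMP4 (log2 3.67, SE 0.22, adjusted p = 1.19e-08). Between the cytokines the difference was 2.35-fold (log2 1.23, SE 0.22, adjusted p = 0.000415). S100a1 and S100a13 thus differed in where most of the change fell: the larger step of S100a1 came between Neurosphere and LIF.NOG (2.44 against 1.23), and that of S100a13 between LIF.NOG and BMP4 (1.99 against 1.55). This contrast between the 2 genes was not tested.

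S100a6, or calcyclin, a partner of annexins and of the calcyclin-binding protein Cacybp that is abundant in dividing and stimulated cells, had the largest fold of the members in BMP4 against Neurosphere, and a wide spread within Neurosphere (SD 1.03) and LIF.NOG (SD 0.839). In Neurosphere it stood at 5.94 and 6.01 on arrays 1 and 2 and at 7.93 and 7.56 on arrays 3 and 4. In LIF.NOG it read 9.68, 9.75, 8.01 and 9.63, and in BMP4 10.51, 10.81, 10.68 and 11.72. LIF.NOG 3, at 8.01, lay just above Neurosphere 3, at 7.93, so the first 2 groups all but touched, while every BMP4 array lay above every other array. S100a6 rose 5.32-fold in LIF.NOG (log2 2.41, SE 0.49, adjusted p = 0.00202) and 16.8-fold in BMP4 (log2 4.07, SE 0.49, adjusted p = 7.17e-06). BMP4 exceeded LIF.NOG 3.16-fold (log2 1.66, SE 0.49, adjusted p = 0.0127).

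S100a16, a widely expressed member with a weak calcium site, made the smallest rise. Its levels were 6.54, 6.69, 6.78 and 7.00 in Neurosphere, 7.24, 8.04, 7.46 and 7.43 in LIF.NOG, and 8.24, 8.17, 8.21 and 8.24 in BMP4. The BMP4 arrays were nearly alike (SD 0.0351, n = 4), and LIF.NOG 2 came close to them. The rise was 1.73-fold in LIF.NOG (log2 0.79, SE 0.16, adjusted p = 0.00219), 2.75-fold in BMP4 (log2 1.46, SE 0.16, adjusted p = 3.24e-06) and 1.6-fold from LIF.NOG to BMP4 (log2 0.67, SE 0.16, adjusted p = 0.00362).

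**Figure D1:**
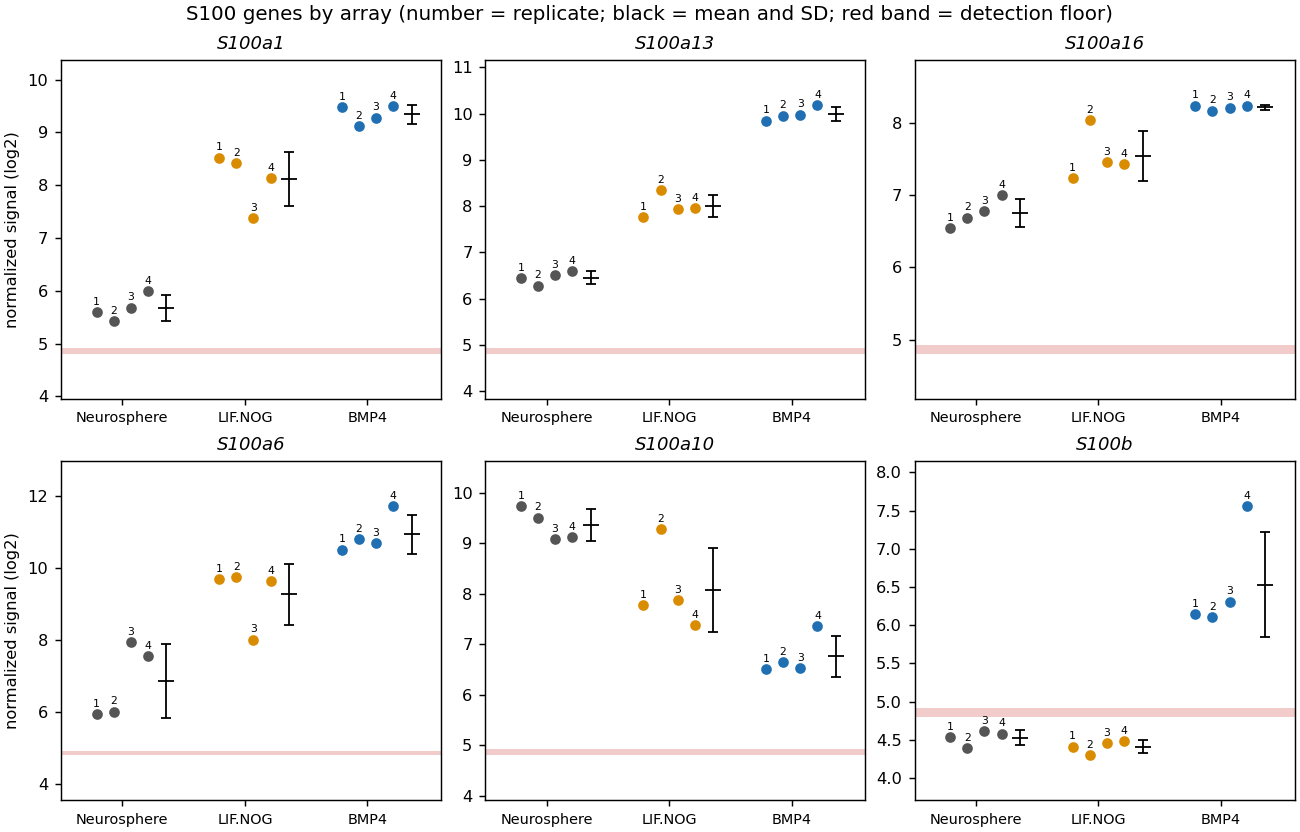
Log2 normalized signal of the 6 measured S100 members on each of the 12 arrays, by group, with the group mean and SD (n = 4). S100a1, S100a13, S100a6 and S100a16 are higher in LIF.NOG than in Neurosphere and higher still in BMP4. The means of S100a10 run the other way, and S100b leaves the range of undetected probes in BMP4 alone.

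S100a10, the calcium-blind partner of annexin A2, moved the other way and was the 1 member that fell. Its levels were 9.74, 9.51, 9.08 and 9.13 in Neurosphere, 7.77, 9.28, 7.87 and 7.38 in LIF.NOG, and 6.50, 6.65, 6.52 and 7.36 in BMP4. LIF.NOG 2, at 9.28, lay within the Neurosphere range, and LIF.NOG 4, at 7.38, lay next to BMP4 4, at 7.36. The mean fell 2.45-fold in LIF.NOG (log2 -1.29, SE 0.34, adjusted p = 0.00958), with overlapping groups, and 6.1-fold in BMP4 (log2 -2.61, SE 0.34, adjusted p = 1.55e-05). BMP4 was 2.49-fold below LIF.NOG (log2 -1.31, SE 0.34, adjusted p = 0.00587), a call that was lost when the row-order sets described below entered as a block. Without LIF.NOG 2 the fall in LIF.NOG was -1.69 (adjusted p = 5.09e-05) and the step to BMP4 -0.91 (adjusted p = 0.00411).

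Of the binding partners of S100a10, Ahnak rose in both treated groups and Anxa2 in LIF.NOG, while its 2 probes differed in BMP4. Anxa2, which encodes the annexin held in the complex, stood at 10.19, 10.39, 10.50 and 10.71 in Neurosphere, 12.68, 12.97, 11.78 and 12.37 in LIF.NOG and 11.76, 12.28, 12.14 and 12.43 in BMP4. It rose 4-fold in LIF.NOG (log2 2.00, SE 0.23, adjusted p = 3.23e-05) and 3.26-fold in BMP4 (log2 1.70, SE 0.23, adjusted p = 1.96e-05). The second kept Anxa2 probe also rose in LIF.NOG (log2 1.96, adjusted p = 0.000176), but did not pass in BMP4 against Neurosphere (log2 0.57, adjusted p = 0.102) and stood lower in BMP4 than in LIF.NOG (log2 -1.39, adjusted p = 0.00103), where the first probe gave -0.30 (adjusted p = 0.326). Ahnak, a giant scaffold protein that binds the complex at the cell membrane, was detected on 2 of 4 Neurosphere arrays at 4.83 to 4.98, and reached 7.89 to 8.90 in LIF.NOG and 7.32 to 8.65 in BMP4. Ahnak was at least 10.6-fold higher in LIF.NOG (adjusted p = 2.66e-06) and at least 9.04-fold higher in BMP4 (adjusted p = 4.5e-07) than in Neurosphere. These bounds are taken against the dimmest detected signal of each array and hold for the background correction used. The second kept Ahnak probe also rose, by 2.59 in LIF.NOG (adjusted p = 1.4e-05) and 2.43 in BMP4 (adjusted p = 2.77e-06). In LIF.NOG S100a10 thus fell while Anxa2 and Ahnak rose, and in BMP4 it fell while Ahnak rose, all against the same 4 Neurosphere arrays.

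S100b, the astrocyte marker of the family, was above background in BMP4 alone. Its raw signal was 65.0 to 76.2 in Neurosphere and 65.7 to 72.4 in LIF.NOG, where no array detected it (lowest detection p 0.179), and 117.0, 121.6, 128.6 and 279.8 on BMP4 arrays 1 to 4, all of which detected it. On the log2 scale these became 4.54, 4.39, 4.61 and 4.58 in Neurosphere, 4.48 or less in LIF.NOG, and 6.15, 6.11, 6.31 and 7.56 in BMP4. BMP4 4 stood well above the other BMP4 arrays, and the lowest BMP4 array was still above all others. Since values below background are only bounds, the difference is given against the dimmest detected signal of each array: BMP4 was at least 3.12-fold above Neurosphere (adjusted p = 1.1e-05) and at least 3.19-fold above LIF.NOG (adjusted p = 1.31e-05). These bounds hold for the background correction used: the fitted log2 difference from Neurosphere, 2.00 here, was 1.17 with an offset of 50, 0.90 without background correction and 0.58 in the authors' processed table, each called. No fold is given between Neurosphere and LIF.NOG, both undetected (adjusted p = 0.782). Without BMP4 4 the fitted log2 difference was 1.64 from Neurosphere (adjusted p = 1.34e-07) and 1.76 from LIF.NOG (adjusted p = 1.32e-07), against 2.00 and 2.12 with it. S100b passed the filter through its 4 BMP4 arrays only, so a call in BMP4 was built into its passing.

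Of the 6 measured members, 4 were called higher and 1 lower in LIF.NOG against Neurosphere, where 33.1% of all genes were called, 16.5% higher and 16.5% lower. In BMP4 against Neurosphere 5 were called higher and 1 lower, where 54.3% of all genes were called, 26.6% higher and 27.7% lower. In BMP4 against LIF.NOG 5 were again higher and 1 lower, where 43.9% of all genes were called, 20.7% higher and 23.2% lower. Leaving out S100b, the other 5 members were detected on all 12 arrays, and each was called in every comparison. The median log2 change over the 6 was 1.17, 2.77 and 1.44 in the 3 comparisons, beside -0.01, 0.00 and 0.00 over all genes. The groups did not overlap for 4, 6 and 6 of the 6 members in the 3 comparisons, as they did not for 31.6%, 52.9% and 37.1% of all genes. These medians and counts include S100b, whose difference in BMP4 was built into its passing the filter. In the authors' processed table the changes in BMP4 against Neurosphere were smaller and each still called: 2.09 for S100a1, 3.05 for S100a6, -1.72 for S100a10, 2.40 for S100a13 and 0.83 for S100a16. The first and second comparison share their Neurosphere arrays, and the third shares the treated arrays of both.

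Read across the groups, S100a1, S100a6, S100a13 and S100a16 were called higher at both steps, which held for 5.09% of all genes (549). S100a10 was called lower at both, which held for 6.68% (721), but its call between LIF.NOG and BMP4 was lost with the row-order sets as a block. S100b was called higher in BMP4 than in both other groups without a call between those, which held for 11.5% (1236). It passed the filter through its BMP4 arrays only, so its place in this pattern was built in. None of the 6 members (0) showed the pattern of a rise shared by LIF.NOG and BMP4 without a call between them, found in 5.13% of all genes (553).

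**Figure D2:**
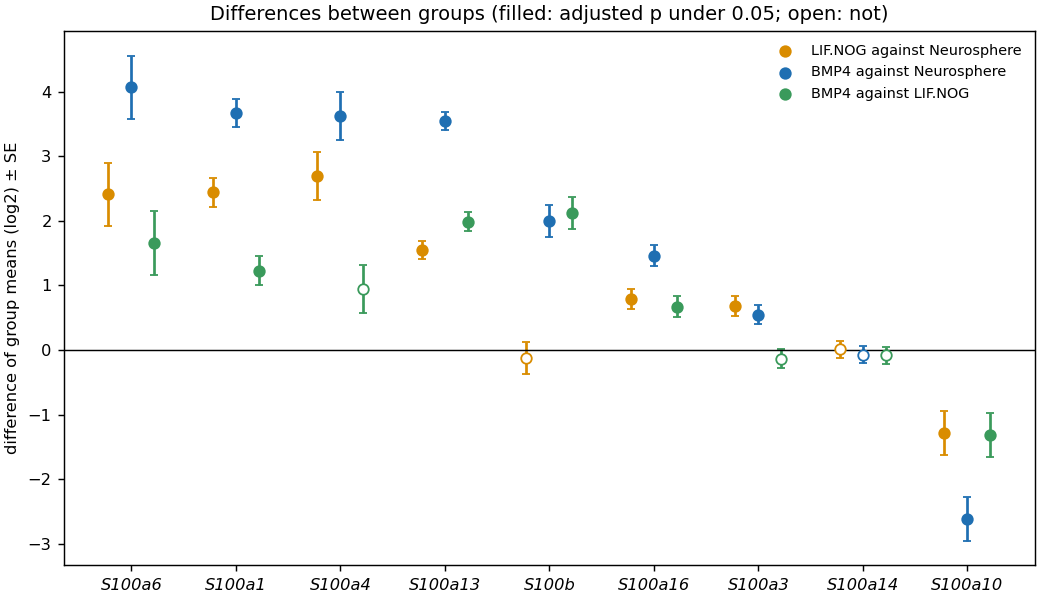
Log2 changes with limma SE of the 6 measured S100 members and of the other S100 genes that passed the filter, in the 3 comparisons. S100a6 has the largest change of the 6 members in BMP4 against Neurosphere (4.07), S100a10 alone lies below 0 in all 3 with a call, and S100b is at 0 within its error (-0.12, SE 0.25) in LIF.NOG against Neurosphere.

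Beside the 7 members, 12 other S100 symbols were looked up, of which 9 had a probe and 3 passed the filter. S100a4, a protein of motile cells and fibroblasts that binds non-muscle myosin, stood at 5.26 or less in Neurosphere (mean 4.80 ± 0.356, SD, n = 4), where 1 array detected it, at 7.34, 8.38, 6.58 and 7.63 in LIF.NOG, and at 7.95, 8.17, 8.11 and 9.46 in BMP4. The treated groups overlapped each other and stood clear of Neurosphere. S100a4 was at least 5.66-fold higher in LIF.NOG (adjusted p = 0.000145) and at least 10.9-fold higher in BMP4 (adjusted p = 1.63e-06) than in Neurosphere. As for S100b, these bounds hold for the background correction used. The log2 difference of 0.94 between the treated groups did not pass (SE 0.37, adjusted p = 0.0539). S100a3, known chiefly from hair, lay near background, with means of 5.00, 5.68 and 5.55, and was called higher in LIF.NOG (log2 0.68, SE 0.15, adjusted p = 0.00337) and in BMP4 (log2 0.55, SE 0.15, adjusted p = 0.00605), with no call between them (log2 -0.13, adjusted p = 0.525). S100a14, an epithelial member, was not called in any comparison (adjusted p = 0.979, 0.668 and 0.659). The other 6, among them the neutrophil genes S100a8 and S100a9 and the S100a6 neighbours S100a5 and S100a7a, did not pass the filter. S100a5, which lies next to S100a6 on the chromosome, was undetected on all 12 arrays, with means of 4.26, 4.25 and 4.26.

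A list of 38 genes for S100 binding partners, receptors and other EF-hand proteins held 29 that were tested. In LIF.NOG against Neurosphere 10 were called higher, 3 lower and 16 not (median log2 change 0.18, all genes -0.01). In BMP4 against Neurosphere 12 were higher, 9 lower and 8 not (median 0.26, all genes 0.00). From LIF.NOG to BMP4 9 were higher, 9 lower and 11 not (median -0.10, all genes 0.00). These shares of calls, with both directions present, are read beside the 33.1%, 54.3% and 43.9% of all genes.

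Fgf1, the growth factor that S100a13 helps to export, rose in BMP4 and had no call in LIF.NOG. Its levels were 6.14, 6.13, 5.92 and 6.45 in Neurosphere, 6.09, 7.41, 6.08 and 5.61 in LIF.NOG, and 12.01, 10.92, 10.65 and 11.82 in BMP4. The first 2 groups overlapped, and the BMP4 arrays stood more than 3 units above both. The rise in BMP4 was 36.5-fold over Neurosphere (log2 5.19, SE 0.36, adjusted p = 4.8e-08) and 33.2-fold over LIF.NOG (log2 5.05, SE 0.36, adjusted p = 1.11e-07), and the change in LIF.NOG was 0.14 (SE 0.36, adjusted p = 0.825). A second Fgf1 probe gave 3.00 between BMP4 and LIF.NOG (adjusted p = 4.83e-07). S100a13, by comparison, was higher than in Neurosphere in LIF.NOG as well as in BMP4.

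Atp2a2 and Ryr2, partners of S100a1 at the calcium store known from heart muscle, likewise rose in BMP4 with no call in LIF.NOG. These 2 genes were picked after their values were seen. Atp2a2, the pump that refills the endoplasmic reticulum with calcium, stood at 9.82 to 10.09 in Neurosphere, 9.87 to 10.41 in LIF.NOG, and at 11.55, 11.58, 11.57 and 12.51 in BMP4. It rose 3.57-fold in BMP4 against Neurosphere (log2 1.83, SE 0.20, adjusted p = 3.34e-06) and 3.15-fold against LIF.NOG (log2 1.66, adjusted p = 1.75e-05), with 0.18 in LIF.NOG (SE 0.20, adjusted p = 0.563). Its 3 probes all rose between LIF.NOG and BMP4, by 1.24 to 1.66. Ryr2, a channel that releases calcium from the store, was undetected in Neurosphere and LIF.NOG and read 5.71, 5.24, 5.37 and 5.91 in BMP4, at least 1.58-fold above Neurosphere (adjusted p = 9.95e-05) and at least 1.62-fold above LIF.NOG (adjusted p = 0.000392). Like S100b, Ryr2 passed the filter through its BMP4 arrays only, so these calls were built into its passing. Its bounds, too, hold for the background correction used.

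Cacybp and Sugt1, partners of S100a6, fell in both treated groups. Cacybp, which binds S100a6 and takes part in protein degradation, stood at 9.21, 8.85, 9.09 and 9.08 in Neurosphere, 8.08, 8.71, 7.94 and 8.18 in LIF.NOG, and 8.23, 8.01, 8.10 and 8.16 in BMP4. Every Neurosphere array was above every treated array. Cacybp fell by 0.83 in LIF.NOG (SE 0.15, adjusted p = 0.00122) and by 0.93 in BMP4 (SE 0.15, adjusted p = 0.000149), with no call between them (log2 -0.10, adjusted p = 0.653). Sugt1, a co-chaperone that S100a6 also binds, was lower at each step, by -0.45 in LIF.NOG (SE 0.16, adjusted p = 0.0395), -0.97 in BMP4 (adjusted p = 0.000107) and -0.52 between them (adjusted p = 0.0143). Anxa6, an annexin bound by several S100 proteins, was lower in BMP4 (log2 -0.98, SE 0.23, adjusted p = 0.00264) and not called in LIF.NOG (log2 -0.10, adjusted p = 0.816). BMP4 4, at 9.66, overlapped the Anxa6 levels of Neurosphere, while the other BMP4 arrays stood at 8.58 to 8.80. Another kept Anxa6 probe also fell in BMP4 against Neurosphere (log2 -1.02, adjusted p = 0.000306), while a further probe did not pass (log2 -0.30, adjusted p = 0.0574). Anxa1 and Anxa11, further annexin partners, did not pass the filter.

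Receptor and scaffold genes gave mixed results. Ager, the gene of the receptor RAGE, lay near background, with means of 5.00 in Neurosphere, 5.63 in LIF.NOG and 5.26 in BMP4. It was called in LIF.NOG (log2 0.64, SE 0.19, adjusted p = 0.021) and not in BMP4 (log2 0.26, adjusted p = 0.287), while a second Ager probe gave -0.08 in LIF.NOG (adjusted p = 0.746). Iqgap1, a scaffold of the actin cytoskeleton that binds S100b, rose in LIF.NOG (log2 0.73, SE 0.26, adjusted p = 0.043) and fell in BMP4 (log2 -1.15, SE 0.26, adjusted p = 0.00163), and was lower in BMP4 than in LIF.NOG (log2 -1.87, adjusted p = 4.88e-05). Among 3 further Iqgap1 probes, 0 were called in LIF.NOG against Neurosphere (log2 0.45, 0.03 and -0.10, adjusted p = 0.215, 0.904 and 0.56). In BMP4 against Neurosphere these 3 gave log2 -0.93, -0.07 and -0.19 (adjusted p = 0.00735, 0.652 and 0.173). Between LIF.NOG and BMP4 1 fell (log2 -1.38, adjusted p = 0.000659) and 2 were not called (log2 -0.10 and -0.09, adjusted p = 0.557 and 0.561).

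Gfap, Pvalb and Dysf completed the genes with the largest called changes on the list. Gfap, the astrocyte filament protein that S100b and S100a1 bind, was detected on 1 of 4 Neurosphere arrays at 4.33 to 5.27 and stood at 11.80, 8.77, 11.02 and 12.33 in LIF.NOG and 13.09, 13.55, 14.29 and 14.56 in BMP4. It was thus high in both treated groups, with LIF.NOG 2 the lowest of its group. The difference between BMP4 and LIF.NOG was 2.90 (SE 0.59, adjusted p = 0.0012), and S100b, by contrast, was undetected in LIF.NOG where Gfap was high. Pvalb, a calcium buffer with EF hands, rose by 2.86 in LIF.NOG (SE 0.53, adjusted p = 0.00118) and by 4.65 in BMP4 (SE 0.53, adjusted p = 4.82e-06). Dysf, a membrane repair protein that works with annexins, rose in LIF.NOG (log2 2.77, SE 0.41, adjusted p = 0.000249), with -0.29 in BMP4 (adjusted p = 0.601) and -3.06 between BMP4 and LIF.NOG (SE 0.41, adjusted p = 4.24e-05). The second kept Dysf probe gave smaller values in the same directions, 0.89 in LIF.NOG (adjusted p = 0.000315) and -0.94 between BMP4 and LIF.NOG (adjusted p = 7.75e-05).

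**Figure D3:**
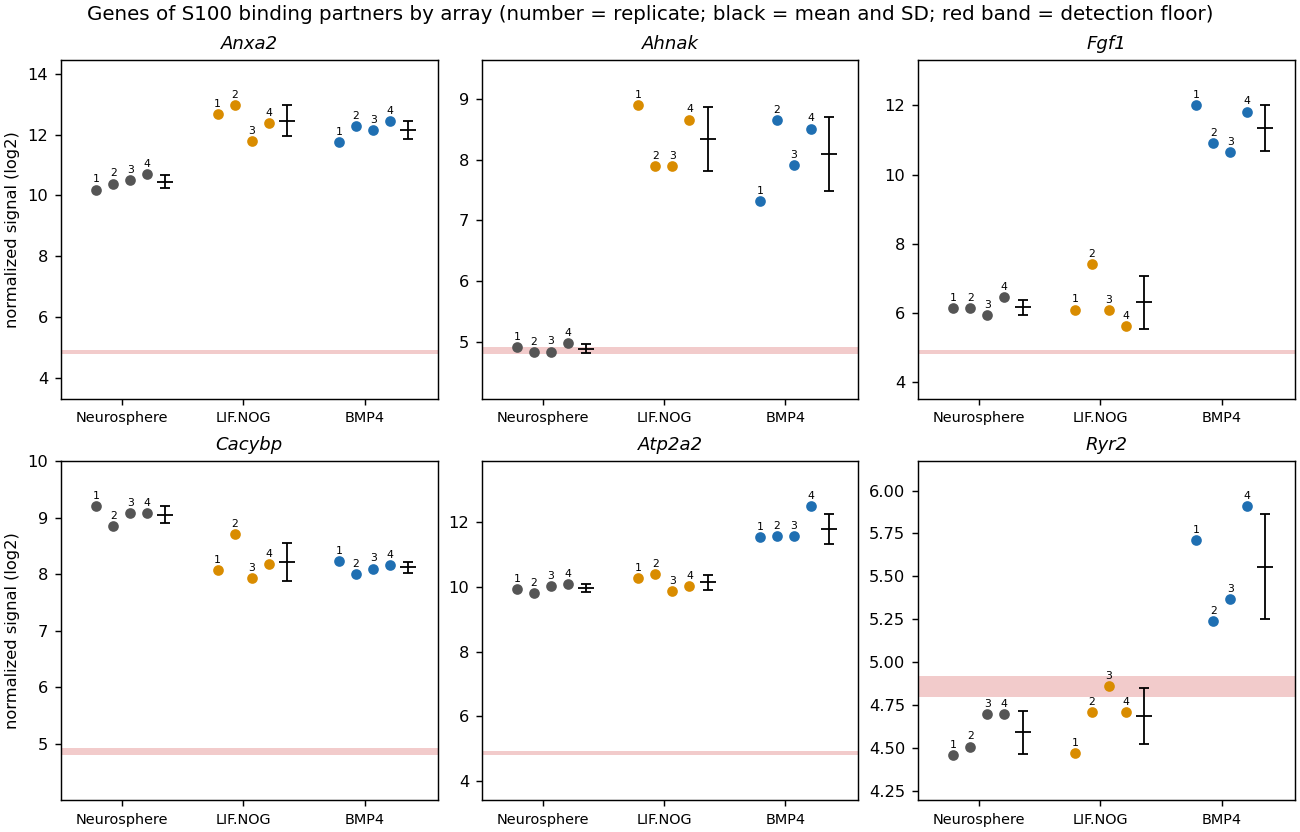
Log2 normalized signal of S100 partner genes on each of the 12 arrays, by group, with group means and SD (n = 4). The Anxa2 and Ahnak probes shown are high in both treated groups, Fgf1 is high in BMP4 alone (10.65 to 12.01), and Cacybp is low in both treated groups (7.94 to 8.71).

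The genes closest to each member in pattern were found by the root mean square difference over the 12 arrays, after centring each gene on its own mean. This is a description over arrays that share their groups. S100a6 was closest to S100a4 (0.542, where the median over all genes was 1.837), followed by Dhrs1 (0.570) and S100a1 (0.575). S100a1 was closest to Dhrs1 (0.187), Sgk1 (0.307) and Paqr8 (0.320), against a median of 1.578, and its closest member was S100a13 (0.492). For S100a13 the nearest were Pde4b (0.222), Htra1 (0.244) and Cadps (0.248), against a median of 1.481. S100a16 had Nxpe4 (0.157), Pitpna (0.172) and Sgpl1 (0.191) nearest, with a median of 0.699. For S100b these were Mfap4 (0.211), Aspg (0.214) and Tmem64 (0.228), with a median of 1.075, and much of this likeness comes from arrays on which S100b was undetected. S100a10 had Mthfd1l (0.254), Ctsc (0.308) and Kif20b (0.310) nearest, with a median of 1.210. Mfap4 and Aspg, like S100b, had means below the detection floor in Neurosphere (4.53 and 4.58) and in LIF.NOG (4.49 and 4.56), and of 6.72 and 6.38 in BMP4.

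Arrays differed in how many members they carried to an extreme. On BMP4 4 the level was the highest of its group for 5 of 6 members, for 6 of 9 astrocyte markers and for 31.1% of all genes. On LIF.NOG 2 it was the highest for 4 of 6 members and for 33.0% of all genes. Over all genes, each of these arrays was more often the lowest of its group than the highest. The counts were 3763 against 3358 genes on BMP4 4 and 3890 against 3556 on LIF.NOG 2. Without BMP4 4 the changes in BMP4 against Neurosphere were 3.62 for S100a1, 3.81 for S100a6, -2.81 for S100a10, 3.48 for S100a13 and 1.45 for S100a16, all called. Without LIF.NOG 2, 4 members were again called higher and 1 lower in LIF.NOG against Neurosphere.

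The deposited tables hold arrays in 2 row orders, which split the samples: Neurosphere 2 to 4 and LIF.NOG 1 to 3 form 1 set, and Neurosphere 1, LIF.NOG 4 and BMP4 1 to 4 the other. Whether the orders stand for separate runs is not given in the sources used here. Within the first set LIF.NOG differed from Neurosphere by 2.40 for S100a1 (adjusted p = 0.00347) and 1.56 for S100a13 (adjusted p = 0.00275), while the changes of S100a6 (1.98, adjusted p = 0.0583), S100a10 (-0.94, adjusted p = 0.134) and S100a16 (0.75, adjusted p = 0.0563) kept their direction and did not pass with 3 arrays against 3. Within the second set BMP4 differed from its 1 Neurosphere array by 2.04 for S100b, 3.76 for S100a1, 4.99 for S100a6, -2.99 for S100a10, 3.55 for S100a13 and 1.67 for S100a16. Against the 1 LIF.NOG array of that set the differences were 2.10 for S100b, 1.20 for S100a1, 2.03 for S100a13, 0.78 for S100a16, 1.29 for S100a6 (adjusted p = 0.0776) and -0.62 for S100a10 (adjusted p = 0.264), of which the last 2 did not pass. With 1 array in an arm, these fits take all spread from the 4 BMP4 arrays and assume that the lone array varies like them, so the values are given for their direction and size. With the set as a block, S100a10 between BMP4 and LIF.NOG did not pass either (log2 -1.16, adjusted p = 0.0746).

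**Figure D4:**
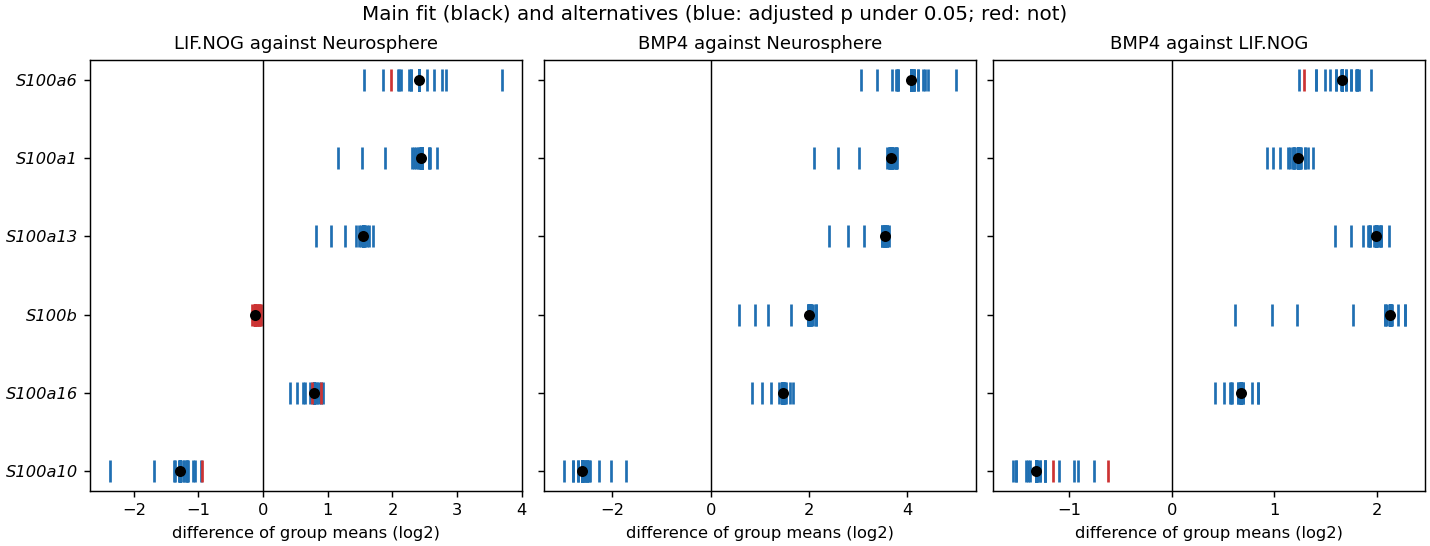
Log2 change of each of the 6 measured S100 members under the reported setting and under each alternative in which it was tested, for the 3 comparisons. No value changes direction, and the widest spread belongs to S100a6 in LIF.NOG against Neurosphere (1.56 to 3.70).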

How the data were processed

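Illumina bead arrays were read for 12 mouse samples, grouped by their titles. Per the file headers, the raw table as deposited holds an intensity that is not normalized for each probe and array. A detection p-value was deposited beside each intensity. The authors' second deposited table holds processed intensity values, used as an alternative. BeadStudio 3 and lumi 2.15.1 are listed in the submitters' processing notes, with their roles not given. No column was left unused (0).

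In the raw table the rows of Neurosphere 1 stood in another order than those of the other arrays. They were matched by rank through 5 arrays that stand in either order in the 2 deposited tables: 46612 rows matched and 18 did not, with a median rank distance of 0.00012 against 0.0137 for the second nearest row. On that array the correlation between probes of 1 gene went from 0.0112 to 0.275 (other arrays 0.233 to 0.265). Of 46602 probes, 29957 carried 1 gene symbol, 10 several and 16635 none. The symbols come from the platform annotation.

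Intensities were corrected and quantile normalized with neqc (limma 3.58.1, R 4.3.3, offset 16, then log2). Probes with a detection p under 0.05 on at least 4 arrays were kept, and a gene was its kept probe with the highest mean (3343 genes had more than 1). Group means were fitted with lmFit to all 12 arrays and compared with eBayes, two-sided, with Benjamini-Hochberg adjustment over 10786 genes. For a gene detected on at most 2 arrays of its dimmer group, a lower bound against the dimmest detected signal of each array replaces the fold. Such a bound depends on the background correction. The number of arrays, 4 per group, limits the precision. The scripts were tested on simulated data. Tables were made with pandas 2.3.3 and numpy 2.4.6 in Python 3.11.15, and figures with matplotlib 3.10.9.

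The members, gene lists and tests were chosen with earlier results of these data known. By the rule for named genes the text names all 7 members, every other S100 gene that passed, 10 listed partners, the 3 partners with the largest called change per comparison and the 3 genes nearest each member in pattern. Alternatives were each array left out, a replicate block, row-order sets, other background corrections, scaling and filters, other probe rules, the authors' table and robust eBayes. Each BMP4 array was also left out with the probes kept as on all 12 arrays, chosen after seeing the data because S100b otherwise failed the filter. Protein sequences were not used here.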

Additional observations from a re-analysis of the deposited data

Results flagged for a closer look

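In groups of 4 arrays, a level was picked out where its gap to the nearest other array took up more of the group's range than Dixon's critical value allows. In 105 groups checked (35 named genes), 10 levels were picked out, where chance gives about 1 in 20 for a single group. The genes were named with their values known and share the same 12 arrays. The checks are therefore not independent, and no excess over chance can be read from the count. Of the members, S100b stood at 7.56 on BMP4 4 against 6.11 to 6.31 on the other BMP4 arrays, and S100a6 at 8.01 on LIF.NOG 3 against 9.63 to 9.75 on the others. S100a4 stood at 9.46 on BMP4 4 (others 7.95 to 8.17), Atp2a2 at 12.51 on BMP4 4 (others 11.55 to 11.58), and Dysf at 7.72 on BMP4 4 (others 5.63 to 5.93). Iqgap1 stood at 7.70 on BMP4 3 (others 7.98 to 8.02). Among cell type markers, Tagln stood at 6.66 on BMP4 4 (others 5.46 to 5.54), Igfbp4 at 9.71 on BMP4 4 (others 10.46 to 10.56), Dcx at 4.52 on Neurosphere 3 (others 5.29 to 5.39), and Rgs5 at 4.53 on LIF.NOG 2 (others 4.37 to 4.39), where it was undetected. Of the 10 levels, 6 fell on BMP4 4, which was 1 array of the 12, and their cause was not tested.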

How the results depend on the processing

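The 18 results for the 6 measured members were recomputed under up to 29 alternatives, which gave 498 values. Of these 491 kept their direction and side of the threshold, 7 kept their direction without passing, and 0 reversed. The 7 all came from the row-order sets. For LIF.NOG against Neurosphere they were S100a6 (1.98), S100a10 (-0.94) and S100a16 (0.75) within the first set, and S100a16 (0.89, adjusted p = 0.0509) in the second, where 1 array stands against 1. For BMP4 against LIF.NOG they were S100a10 with the set as a block (-1.16), and S100a6 (1.29) and S100a10 (-0.62) within the second set.

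Counts of called genes fell within the sets. In LIF.NOG against Neurosphere 3569 genes were called (1785 higher, 1784 lower), 1682 within the first set (950 higher, 732 lower) and 1261 within the second (690 higher, 571 lower). There, the first set called 2 members, 2 higher and 0 lower. BMP4 against Neurosphere called 5855 genes and 3792 within the second set (1890 higher, 1902 lower). BMP4 against LIF.NOG called 4736 genes and 2304 within the second set (1117 higher, 1187 lower), with 0 members lower there and 0 with the set as a block. Median scaling called 1145 genes lower in LIF.NOG and placed 62.2% of its calls higher, against 50.0%, and the cause was not tested. Leaving out 1 array at a time gave 2766 to 4320, 5387 to 6158 and 4183 to 5028 genes called in the 3 comparisons. Without LIF.NOG 2 the first count was 4320.

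Without background correction the changes in BMP4 against Neurosphere were smaller, 0.90 for S100b (2.00 as reported), 2.58 for S100a1 (3.67) and 2.79 for S100a13 (3.54), all called. On leaving out any 1 BMP4 array S100b failed the filter and was not tested, unless the probes were kept as on 12 arrays.

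The labels do not say that replicate numbers pair the samples, and correlations of deviations between arrays of 1 number ran from -0.055 to 0.261, not all above 0.1. In 16 of 24 comparisons of an array with another group the own number correlated best, where chance gives 6, which is a hint from the data and not the design. With the replicate number as a block, 3598, 5921 and 4829 genes were called, and no member's call changed: S100a1 gave 2.44, 3.67 and 1.23, for example.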

Other observations

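Calmodulin, the calcium sensor that shares the EF-hand fold with the S100 proteins, was tested through Calm2 and Calm3, which like S100pbp and Anxa5 were picked from the partner list after their values were seen. Calm3 was not called in any comparison (log2 -0.06, 0.26 and 0.32, adjusted p = 0.804, 0.152 and 0.0902). Calm2 fell by 1.24 in LIF.NOG (SE 0.20, adjusted p = 0.000489) and fell by 1.54 in BMP4 (SE 0.20, adjusted p = 1.73e-05) against the same Neurosphere arrays, with -0.31 between BMP4 and LIF.NOG (adjusted p = 0.251). S100pbp, a nuclear protein named for binding S100P, had lower levels in BMP4 than in Neurosphere (log2 -0.87, SE 0.11, adjusted p = 1.08e-05) and than in LIF.NOG (log2 -0.74, adjusted p = 8.63e-05). Anxa5, a calcium-dependent annexin of membranes, was higher in LIF.NOG than in Neurosphere (log2 1.24, SE 0.15, adjusted p = 5.16e-05). It was higher in BMP4 than in LIF.NOG (log2 0.59, adjusted p = 0.00507), so it moved in the direction of S100a6 and S100a13 and against S100a10.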
